A study of Mus musculus with 4 samples.

Results

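The replication-dependent histone genes are the protein-coding genes whose symbols in the GRCm38 gene table start with Hist1h, Hist2h, Hist3h or Hist4h, current or former. The table held 67 of them among 21900 protein-coding genes, in 7 clusters on chromosomes 13, 3, 11 and 6. The libraries came from cultured mouse pre-B acute lymphoblastic leukemia cells of strain C57BL/6J. The cells overexpressed BCR-ABL1, the fusion kinase that transformed them, and were p19 null (lacking p19, a product of the Cdkn2a locus), and all 4 libraries share these alleles. Chromatin immunoprecipitation and sequencing (ChIP-seq) was done with antibodies to PHF6 (A301-451A, Bethyl), H3K27ac (ab4729, abcam) and H3K27me3 (ab6002, abcam), and an input library is not analysed here. Each antibody had 1 library, so no value below has a replicate check and none carries a p-value. The labels do not say whether the cells were 1 clone.

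Replication-dependent histone genes supply the histones that package newly copied DNA, and they are transcribed mainly in S phase. They have no introns, and their messages end in a stem-loop in place of a poly(A) tail. The families H2A, H2B, H3 and H4 form the nucleosome core, while H1 binds the linker DNA between nucleosomes. PHF6 is a chromatin-associated protein with zinc fingers of the PHD type, mutated in some leukemias. Active promoters and enhancers carry acetylation of lysine 27 on histone H3 (H3K27ac), whereas genes silenced by Polycomb carry trimethylation there (H3K27me3).

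The promoters of these genes carry short motifs that differ by family, and 9 stretches from RefSeq (GRCm38.p6) show them. Each is the 150 bases just before the annotated start, written 5′ to 3′ along the gene, with the motifs in capitals on either strand. The motifs are TATAAA (the TATA box), CCAAT (bound by NF-Y), ATTTGCAT (the octamer, bound by POU factors), AAACACA (the AC box of H1 promoters) and GGGCGG (bound by SP1). The first lines are the 3 H1 genes with the tallest PHF6 summits and Hist1h1t, the testis H1 gene with the lowest.
Hist1h1d (chr13:23554882-23555031, + strand): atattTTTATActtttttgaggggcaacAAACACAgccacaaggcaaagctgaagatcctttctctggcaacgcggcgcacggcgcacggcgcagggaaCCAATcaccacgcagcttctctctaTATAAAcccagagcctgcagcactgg
Hist1h1c (chr13:23738657-23738806, + strand): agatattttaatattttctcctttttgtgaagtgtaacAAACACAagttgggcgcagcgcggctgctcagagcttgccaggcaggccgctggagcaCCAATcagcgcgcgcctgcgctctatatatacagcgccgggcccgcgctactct
Hist1h1e (chr13:23622559-23622708, - strand): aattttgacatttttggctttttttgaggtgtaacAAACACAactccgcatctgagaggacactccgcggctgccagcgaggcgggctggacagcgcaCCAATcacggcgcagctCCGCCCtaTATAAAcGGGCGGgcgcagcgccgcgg
Hist1h1t (chr13:23695661-23695810, + strand): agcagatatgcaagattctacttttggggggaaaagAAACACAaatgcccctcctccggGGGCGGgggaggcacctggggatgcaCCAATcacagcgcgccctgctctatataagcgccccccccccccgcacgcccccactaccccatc
The H3 gene with the tallest PHF6 summit follows, then an H2A gene and the H2B gene that starts close to it on the opposite strand, so that their stretches overlap as reverse complements. The last lines are the H4 gene with the lowest H3K27ac summit and a testis H2B gene.
Hist1h3d (chr13:23575613-23575762, + strand): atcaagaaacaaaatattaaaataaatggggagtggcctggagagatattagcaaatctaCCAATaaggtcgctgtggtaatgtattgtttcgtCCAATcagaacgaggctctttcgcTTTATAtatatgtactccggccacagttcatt
Hist1h2ae (chr13:23571221-23571370, - strand): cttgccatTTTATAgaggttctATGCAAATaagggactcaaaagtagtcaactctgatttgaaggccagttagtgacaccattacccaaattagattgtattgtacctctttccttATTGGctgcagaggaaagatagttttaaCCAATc
Hist1h2bg (chr13:23571250-23571399, + strand): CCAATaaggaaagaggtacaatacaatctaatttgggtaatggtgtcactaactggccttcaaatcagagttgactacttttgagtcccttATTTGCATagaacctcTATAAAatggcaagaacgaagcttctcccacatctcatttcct
Hist1h4c (chr13:23698459-23698608, - strand): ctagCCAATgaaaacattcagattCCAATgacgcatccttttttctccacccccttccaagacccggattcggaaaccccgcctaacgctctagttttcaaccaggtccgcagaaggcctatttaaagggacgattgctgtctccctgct
Hist1h2ba (chr13:23934157-23934306, - strand): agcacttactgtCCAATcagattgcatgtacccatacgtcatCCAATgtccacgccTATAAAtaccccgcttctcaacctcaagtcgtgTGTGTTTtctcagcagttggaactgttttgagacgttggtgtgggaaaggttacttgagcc

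Motifs were searched on both strands in 300-base promoters, from 250 bases before the start through 50 from it. There were 63 such promoters for 62 histone genes and 21263 for all 17492 protein-coding genes with a start. Where occurrences of different motifs overlap, each was counted. CCAAT was in all 6 H1, 18 H2A, 17 H2B and 10 H3 promoters, but in 3 of 12 H4 promoters, against 38.2% of all promoters. The octamer was in 7 of 18 H2A and 7 of 17 H2B promoters, in no H1, H3 or H4 promoter, and in 1.66% of all. Neighbouring H2A and H2B genes share a promoter, so 1 octamer can be counted at both, as in the Hist1h2ae and Hist1h2bg lines. AAACACA was in 5 of 6 H1 promoters, Hist1h1a being the exception, and in 6.15% of all. It lay 112 bases before the start of Hist1h1c, 114 before Hist1h1t, 115 before Hist1h1e, 117 before Hist1h1b and 122 before Hist1h1d. TATAAA was in 35 of 63 histone promoters (55.6%) against 12.6% of all, and GGGCGG in 24 (38.1%) against 46.2%. The median GC content of histone promoters was 45.3%, from 41.3% in H3 to 51.2% in H1, against 56.3% over all. These are letter matches only, not binding sites.

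Peaks and summits are in mm9 as deposited, while the gene table is in GRCm38, so each start was moved by the local offset at which tall H3K27ac summits (height 200 or more) best met the starts of genes that are not histone genes. Of the 67 histone genes, 62 had a start in the promoter table and 61 could be placed, among 15969 placed protein-coding genes. The offsets were 91900 and 91888 bp on chromosome 13, about -196049 bp on chromosome 3 and -186515 bp on chromosome 11. At the chromosome 13 offset, found without them, 45 of 51 histone starts had a PHF6 summit within 500 bp. Over shifts more than 5 kb away, within 40 kb of it, the highest count was 12 and the median 4. Positions are estimates: offsets taken from PHF6 summits at other genes differed by up to 97 bp, and those from the histone genes themselves by between -362 and 307 bp.

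**Figure D1:**
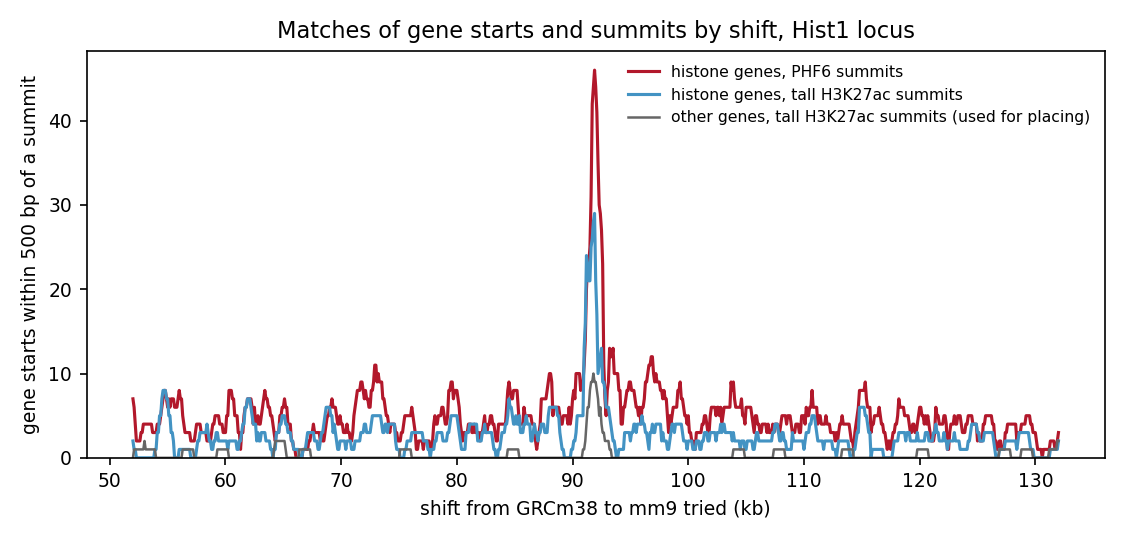
Number of gene starts on chromosome 13 (y axis) within 500 bp of a summit for each shift from GRCm38 to mm9 tried (x axis, kb). Grey marks 103 other genes against tall H3K27ac summits, from which the shift was taken, blue and red the 51 histone genes against tall H3K27ac and PHF6 summits. All 3 curves peak near 92 kb, where red reaches 45 at the offset used.

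Every placed histone gene had a PHF6 peak and an H3K27ac peak within 1 kb of its start, and none had an H3K27me3 peak. PHF6 was at 61 of 61 histone genes, against 63.8% of all placed genes. H3K27ac was at 61 of 61, against 58.0%, and both together at 61 of 61, against 52.1%. H3K27me3 was at 0 of 61, which allows up to 5.87% (exact 95% interval, counting error only), against 3.24% of all placed genes, so the histone genes were not set apart from the background in H3K27me3. Neighbouring starts often fall in the same peak, and the 61 genes stood on 51 distinct PHF6 peaks and 36 distinct H3K27ac peaks. Counted by gene, 16 of 61 (26.2%) had 2 or more PHF6 peaks within 1 kb, against 3.37% of all placed genes. Often the further peak is that of another histone start nearby. The second peak of Hist1h2ai, for example, has its summit 288 bp downstream of the start of Hist1h3h.

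The other 6 members gave the same picture by looser rules. Hist2h2be, Hist2h4, Hist1h3f, Hist1h2bc and Hist1h3a had no start in the promoter table, so peaks within 1 kb of the gene body were taken. Their tallest PHF6 summits were 42, 40, 56, 44 and 62, and their tallest H3K27ac summits 331, 226, 279, 295 and 269, in that order. Hist4h4, the only gene of its cluster, had 5 matches at its best offset against 3 at the second best and was left unplaced. At that best offset its PHF6 summit was 31 and its H3K27ac summit 312. None of the 6 had an H3K27me3 peak.

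PHF6 summits at histone genes stood high in their list. A summit height is the pileup of reads at the peak's top, a whole number with no unit, comparable only within 1 list. No summit of any list was above 400. The H3K27ac list crowds toward that limit, with a 95th percentile of 338, while that of the PHF6 list is 39. Its deposited scores stop spreading as well: 25.5% of H3K27ac peaks had 3100 or more, as did the peaks at 54 of the 61 histone genes. H3K27ac heights may therefore rank strong peaks poorly, and a small difference between 2 of them says little. Over the 61 genes, the tallest PHF6 summit within 1 kb ran from 25 to 116 with a median of 51 (quartiles 43 and 56), against a median of 32 (26 and 39) over all placed genes with a PHF6 peak. Of the 61, 56 were above that median, and 37 (60.7%) were at 46 or higher, a height reached by 11.0% of all genes with a PHF6 peak. Some of these summits belong to a neighbouring start, and with the summit nearest each start the count was 30 of 61, against 10.8% of all. That count still holds Hist1h2be by the summit of Hist1h1e, Hist1h2bb by that of Hist1h3c and Hist2h2aa2 by that of Hist2h3c2. It also holds Hist2h3c1 and Hist1h4a by summits at -984 and -861 bp. Paired genes that share 1 summit, such as Hist1h2ao and Hist1h2bq, are counted at both. H3K27ac summits ran from 16 to 333 with a median of 295 (278 and 308), against 251 (92 and 317) over all placed genes with an H3K27ac peak. Of the 61, 50 were above that median but none reached 345, as 10.5% of all genes with an H3K27ac peak did. Among 1157 placed genes whose H3K27ac summits lay in the same quartile range as those of the histone genes, the median PHF6 summit was 36 (32 and 41). Across the 61 genes the 2 heights had Pearson's r of 0.42 and Spearman's rho of 0.49. Without the 3 testis genes these were 0.31 and 0.41, and over the 8317 placed genes with both peaks 0.40 and 0.61. The points share libraries and, for neighbouring genes, peaks. In bulk chromatin, more cells carrying a factor and more of it per cell cannot be told apart.

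**Figure D2:**
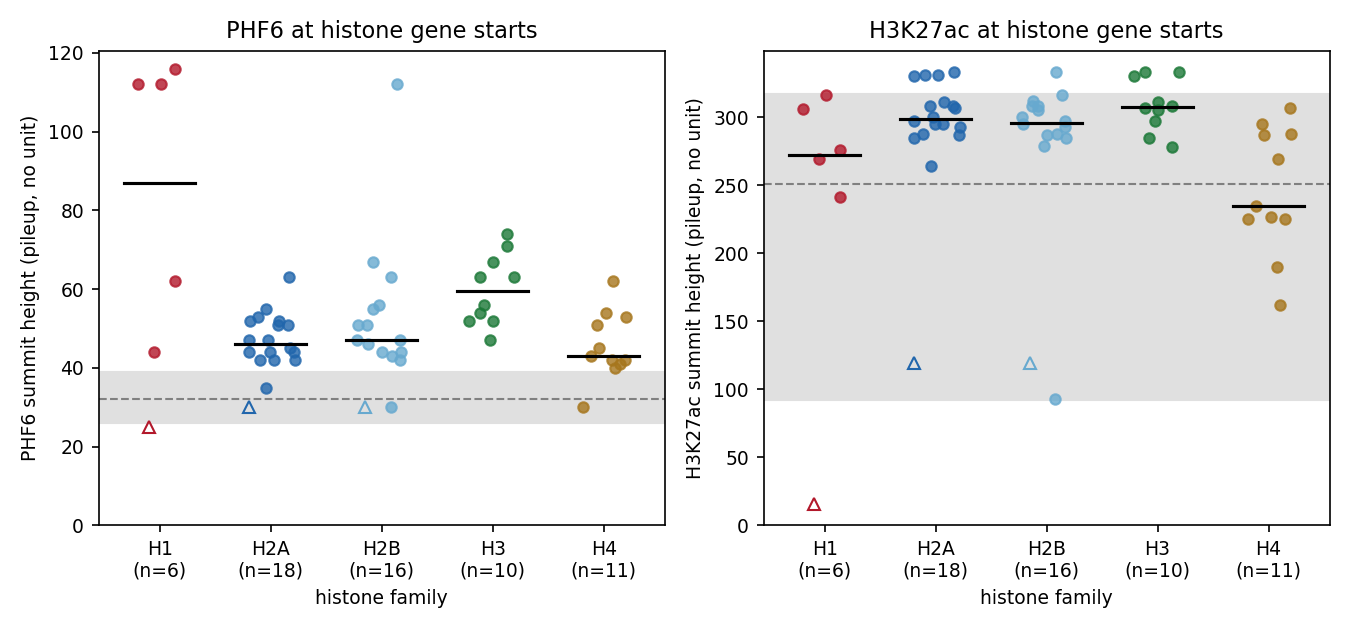
Tallest PHF6 (left) and H3K27ac (right) summit height within 1 kb of each of the 61 histone gene starts (y axis, no unit) by family (x axis). Points are genes, triangles the 3 testis genes, black lines family medians, and the dashed line and grey band the median and quartiles of all placed genes with such a peak. The 3 H1 genes at 112 to 116 stand above every gene with its own summit, the H2B point at 112 being the summit of Hist1h1e.

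The H1 genes held both the tallest and the lowest PHF6 summits of all the histone genes. H1 proteins compact the chromatin fibre, and most H1 subtypes of dividing cells are encoded in the Hist1 cluster. The PHF6 summit was 116 at Hist1h1d, 112 at Hist1h1e, 112 at Hist1h1c, 62 at Hist1h1b, 44 at Hist1h1a and 25 at Hist1h1t. The first 3 were taller than at 99.8% of all placed genes with a PHF6 peak, and the deposited scores of their peaks were 1201, 1428 and 1408. Their peaks spanned chr13:23646631-23648079, chr13:23713255-23714724 and chr13:23830238-23832180 in mm9. Their H3K27ac summits were 276 at Hist1h1d, 316 at Hist1h1e and 306 at Hist1h1c, beside 241 at Hist1h1b and 269 at Hist1h1a, all in the range where that list is crowded. Hist1h1t, which encodes the H1 of the testis, was lowest in both lists, with a PHF6 summit of 25 and an H3K27ac summit of 16. Its promoter, printed above, holds AAACACA, as do those of the H1 genes other than Hist1h1a, and CCAAT, as do all 6.

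All 10 H3 genes had a PHF6 summit of 46 or higher within reach of their starts, as did 11.0% of all genes with a PHF6 peak, and by the nearest summit 9 of 10 did. The exception was Hist1h3h, whose nearest summit is 45, the 47 counted for it being the summit shared by Hist1h2ai and Hist1h2bl. For Hist2h3c1 the summit of 52 lay at -984 bp, in the peak of Hist2h2aa1. H3 is the core histone that carries lysine 27. Their PHF6 summits ran from 47 at Hist1h3h to 74 at Hist1h3d with a median of 59.5, and Hist1h3i (71) and Hist1h3c (67) came next. Their H3K27ac summits ran from 278 at Hist1h3i to 333 at Hist2h3b and Hist2h3c2, with a median of 307.5. The peak taken for Hist1h3d in the H3K27ac list was a wide one whose summit lay over 4 kb away, whereas its PHF6 summit lay 196 bp downstream of its start.

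H2A and H2B proteins pair in the nucleosome, and their genes are often paired too: 10 of 18 H2A and 10 of 16 H2B genes start beside a partner of the other family and were given many of the same peaks. Family medians therefore count some summits in both. The median PHF6 summit was 46 over 18 H2A genes and 47 over 16 H2B genes, and the median H3K27ac summits were 298.5 and 296. Among H2A genes the tallest summits were counted at Hist2h2aa2, 63 for PHF6 and 333 for H3K27ac, but they lay 1580 and 1594 bp from its start and are those of Hist2h3c2. The next PHF6 summit was 55 at Hist1h2ad, 259 bp downstream of its start, and the lowest was Hist1h2aa, at 30 and 119. Among H2B genes the listed PHF6 maximum of 112 was at Hist1h2be, whose 5′ end in the table lies near Hist1h1e, and it is the Hist1h1e summit. At a second listed start of Hist1h2be, moved by the same offset, lay a PHF6 summit of 38 and an H3K27ac summit of 235. The counts and medians for Hist1h2be use the 5′ end only. The next H2B value for PHF6, 67 at Hist1h2bb, is the summit also counted for Hist1h3c, -1443 bp from the Hist1h2bb start. Hist2h2bb had the tallest H3K27ac summit of the H2B genes, 333 at -883 bp in the peak of Hist2h3b, and Hist3h2ba the lowest, at 93, with a PHF6 summit of 30.

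H4 genes had the lowest family medians in both lists. Their median PHF6 summit was 43, from 30 at Hist1h4j to 62 at Hist1h4a, with 4 of 11 at 46 or higher, or 3 by the nearest summit. The Hist1h4a summit lay at -861 bp, in the peak also counted for Hist1h3a. Their median H3K27ac summit was 235, from 162 at Hist1h4c to 307 at Hist1h4h, and the latter peak had its summit 3013 bp downstream of the start. The 235 is the value of Hist1h4d, whose summit lay 4160 bp downstream. Only 6 of the 11 had an H3K27ac summit within 1 kb of the start. The H4 promoters were also the family with few CCAAT letters and with GGGCGG in 9 of 12.

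Testis histone genes had low summits, but were not the only ones. Hist1h2ba and Hist1h2aa start 281 bp apart on opposite strands and shared a PHF6 summit of 30 and an H3K27ac summit of 119. With Hist1h1t at 25 and 16, the 3 genes fell below the all-gene medians of 32 and 251 in both lists. So did Hist3h2ba (30 and 93) and Hist1h4j (30 and 225), which are not among the 3. Beside Hist1h1t, the nearest neighbour Hist1h4c stood at 40 and 162.

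PHF6 summits lay just inside the histone genes. For 58 of the 61 genes a PHF6 summit was within 1 kb of the start, at a median of 207 bp downstream (quartiles 151 and 249.8). Of these, 41 (70.7%) lay 50 to 350 bp downstream, against 43.2% of the 9088 placed genes with a summit in that range, whose median was 227 bp with wider quartiles (44 and 415.2). The median was 156 bp for H4, 212.5 for H3, 224 for H2A and 232 for H1. Summits at H2B genes fell in 2 places, with quartiles of -419.8 and 316.5 bp. The H3K27ac summit was upstream of most H2B starts, at a median of -461 bp for the 13 genes with one in range, 2 of them downstream. For H2A genes it was 249 bp downstream, and 14 of 15 were downstream. Over all placed genes with an H3K27ac summit in range the median was 207 bp, and 80.4% were downstream. Downstream H3K27ac summits are thus not particular to H2A genes.

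**Figure D3:**
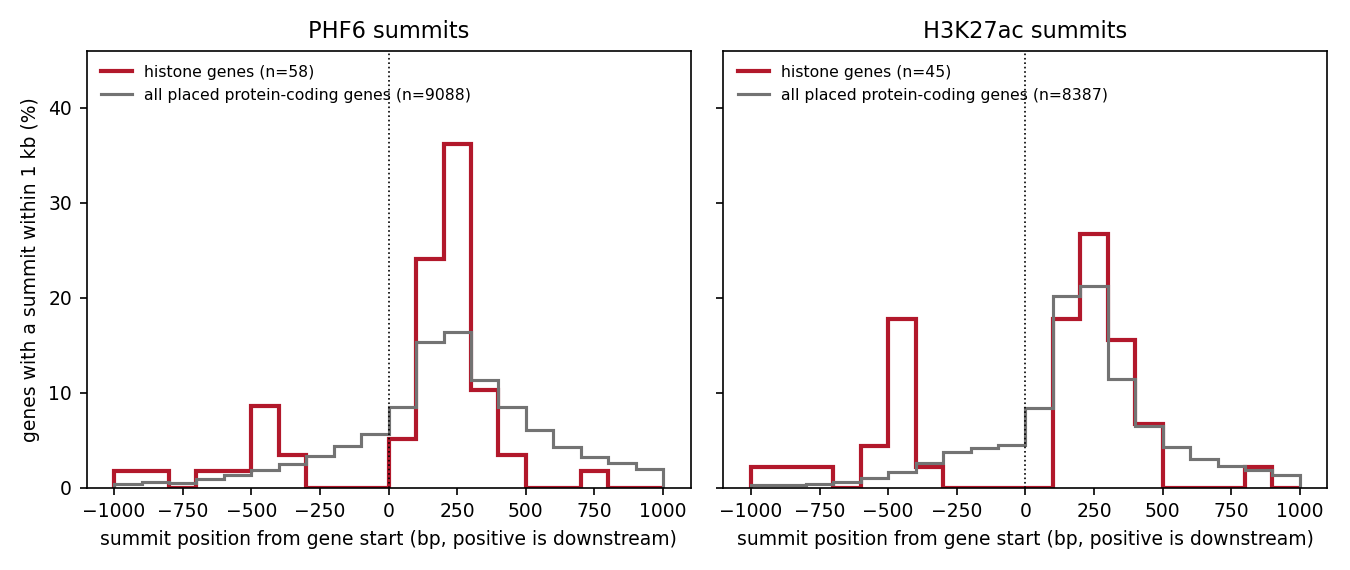
Share of genes (y axis, percent per 100 bp) by position of the nearest PHF6 (left) or H3K27ac (right) summit from the gene start (x axis, bp, positive downstream), for histone genes (red) and all placed genes (grey). Most histone genes lie 50 to 350 bp downstream, with a second group between -600 and -300 bp.

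Upstream summits were mostly at divergent pairs, in which an H2A and an H2B gene start 164 to 281 bp apart and point away from each other. There were 10 such pairs, and they held all 8 histone genes with a nearest PHF6 summit between -600 and -300 bp and 9 of 11 with such an H3K27ac summit. In all 10 a single H3K27ac peak covered both starts, and its summit was on the H2A side in 8 and the H2B side in 2. For Hist1h2bf and Hist1h2ad, 1 of those 2, the summit lay 3293 bp from the Hist1h2bf start. That peak is the one also counted for Hist1h2ae and Hist1h2bg. The tallest PHF6 summit was on the H2A side in 7 pairs and on the H2B side in 3, and 7 pairs had a single PHF6 peak within 1 kb. In 2 of the other 3, 1 peak also covered both starts, and the second peak was that of Hist1h3h or Hist1h4n. The Hist1h4n summit, 53, was the tallest counted for Hist1h2ap and so for its pair with Hist1h2br. For Hist1h2br alone the summit counted was 43. The tallest PHF6 summits of the pairs ran from 30 (Hist1h2ba and Hist1h2aa) to 55 (Hist1h2bf and Hist1h2ad) with a median of 47, and no tallest summit of either list lay between the starts.

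Across the clusters, PHF6 and H3K27ac peaks were denser than on the stretches between the Hist1 groups. A cluster joins histone genes up to 100 kb apart and adds 10 kb at each end, which gave 4 groups of Hist1 genes and the Hist2, Hist3 and Hist4 clusters, 553.6 kb in all. They held 67 PHF6 peaks (12.1 per 100 kb, 15.6% of the bases), 56 H3K27ac peaks (10.1 per 100 kb, 31.0% of the bases) and no H3K27me3 peak. The 1800 kb between the 4 Hist1 groups held 30 PHF6 peaks (1.67 per 100 kb), 21 H3K27ac peaks (1.17) and 2 H3K27me3 peaks. Those stretches hold pheromone receptor genes (Vmn1r, below) without peaks, whereas the clusters were drawn around gene starts. Densities over the genome or over other gene-rich stretches were not computed. The contrast therefore does not show that the densities, or the lack of H3K27me3, are particular to histone clusters. Leaving out the unplaced Hist4, 51 of 64 PHF6 peaks were within 1 kb of a placed histone start, with a median height of 45, and all 51 overlapped an H3K27ac peak. The 13 others had a median of 24. They include summits of 40 at Hist2h4, which was not placed, and 38 at the second listed start of Hist1h2be. Of the 13, 7 overlapped an H3K27ac peak. One of those 7, with a summit of 331, lay at the edge of the Hist3 cluster, outside the histone genes, and was the tallest PHF6 summit in any cluster.

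The clusters differed in height. The median PHF6 summit was 57.5 over 8 Hist2 genes, 54 over 26 genes of the third Hist1 group, 47 over 18 of the first and 45 over 5 of the second. It was 32.5 over 2 Hist3 genes and 30 over the 2 testis genes that make up the fourth Hist1 group. H3K27ac medians ran in the same order, at 332 for Hist2, 305.5, 290.5 and 287 for the third, first and second Hist1 groups, 178.5 for Hist3 and 119 for the fourth Hist1 group.

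H3K27ac peaks at histone starts were wider than the median of their list. The 36 at a placed start had a median width of 3663 bp, against 1484 bp over the whole list, and a median height of 286, against 35. Widths of equally tall peaks at other gene starts were not compared, so the width is not shown to be particular to histone starts. The 18 others in the clusters had a median height of 35.5, and include the summit of 226 at Hist2h4. The peak at chr13:23661739-23669210 (mm9, 7472 bp) held 5 starts, those of Hist1h2ae, Hist1h2bg, Hist1h2bf, Hist1h2ad and Hist1h3d, and 4 separate PHF6 summits. The peak at chr13:23621723-23628977 held the starts of Hist1h4h, Hist1h2af and Hist1h3g with 3 PHF6 summits. Of the 35 H3K27ac peaks that held a histone start, 13 held 2 or more PHF6 summits and 22 held 1.

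**Figure D4:**
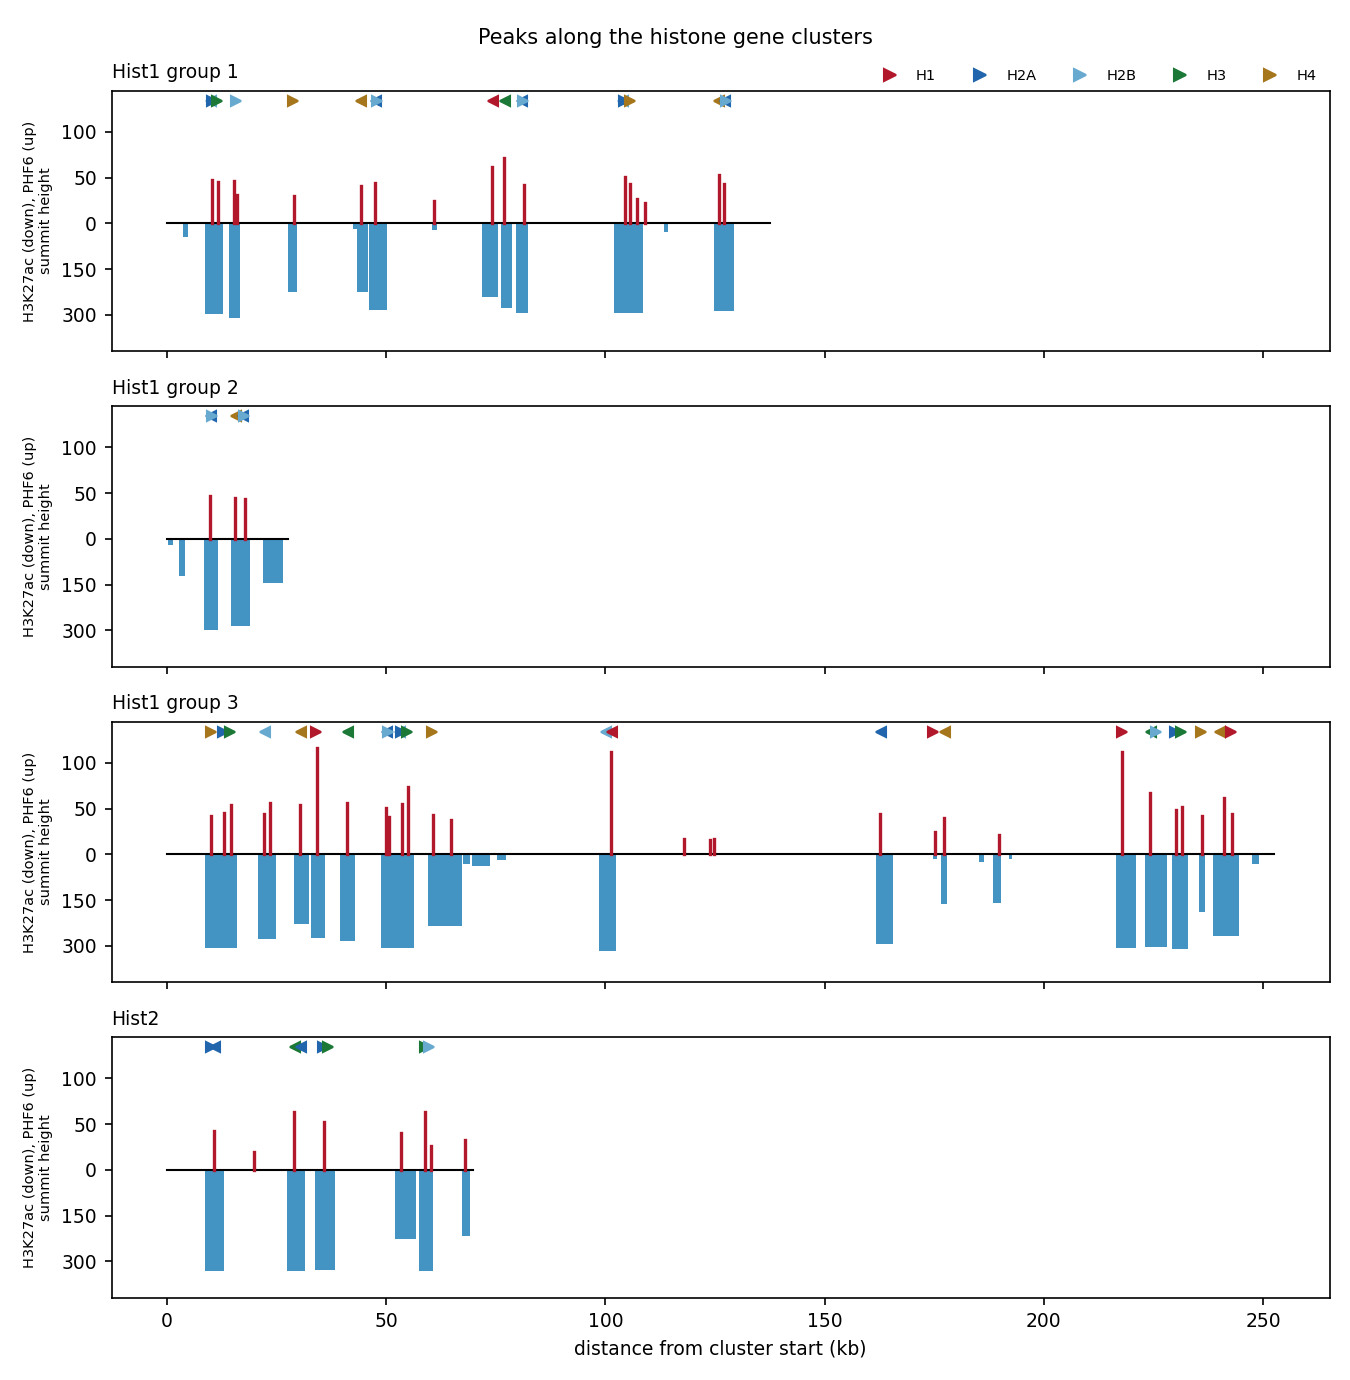
Peaks along 4 histone gene clusters (x axis, kb from the cluster start). Red lines rise to PHF6 summit heights (left scale, upward) at the summits, blue boxes span H3K27ac peaks and reach down to their summit heights (left scale, downward, compressed 3-fold against PHF6), and arrowheads mark histone starts by family and strand. The 3 red lines at 112 to 116 in Hist1 group 3 stand at H1 genes.

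H3K27me3 peaks lay outside the clusters, at distances that varied. The nearest was 5.34 kb from the Hist3 cluster, with a summit of 20, and 14.9 kb from the second Hist1 group, with a summit of 14. It was 66.5 kb from Hist2, 57.6 kb from Hist4 and 165 kb or more from the other Hist1 groups. All of these summits were at most 20, where the whole H3K27me3 list had a median of 16.

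Other genes on the stretches from the first to the last histone gene differed from the histone genes. Between the first and last histone gene of each chromosome lay 44 other placed protein-coding genes. None of the 33 Vmn1r genes, which encode pheromone receptors of the vomeronasal organ, had a peak of any of the 3 kinds. These genes lay 44.7 to 730 kb from the nearest histone start. Of the remaining 11, Zfp184, Pom121l2, Zfp322a, Abt1 and Hfe had both PHF6 and H3K27ac, with PHF6 summits of 21 to 34 and H3K27ac summits of 16 to 300. Of the 61 histone genes, 56 had a taller PHF6 summit than any of these 5.

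Some histone genes have near-identical copies, and 40-base reads cannot always be told apart there. In 10 of 63 histone promoters, against 1046 of all 21263, at least 50% of the 40-base words occur at another place among the promoters. They include the copied pair of groups Hist1h2bq, Hist1h2ao and Hist1h4m against Hist1h2br, Hist1h2ap and Hist1h4n, and Hist2h2aa1 and Hist2h3c1 against Hist2h2aa2 and Hist2h3c2. The nearest PHF6 summits of the copies Hist1h2ao and Hist1h2ap were 51 and 43. The peak over Hist2h3c1 and Hist2h2aa1 had a summit of 52, nearest Hist2h2aa1, and that over Hist2h3c2 and Hist2h2aa2 a summit of 63, nearest Hist2h3c2. No source used here says how reads with several matches were handled, so heights at these copies are uncertain. None of the 6 H1 promoters shared a 40-base word with another promoter, against 9.92% of all promoters. These words were searched only from 250 bases before each start through 50 from it. PHF6 summits at histone genes lay further inside, at a median of 207 bp downstream. Copies under those summits were not searched, so heights at H1 and other genes are not cleared of this doubt.

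Genes that act on histone genes and histones mostly carried both marks, with median PHF6 summits between those of the histone genes (51) and of all genes (32). The median was 35 over all placed genes with both peaks, and 38 over those with an H3K27ac summit of 200 or more. Beside these, the chaperone and replication-independent lists below were not set apart. The list of histone gene regulators and processing factors had 11 of 16 genes placed, and 10 of the 11 had PHF6 and H3K27ac, against 52.1% of all placed genes, and none H3K27me3, against 3.24%. Their median PHF6 summit was 41.5 and their median H3K27ac summit 317. PHF6 was highest at Lsm11 (55), a component of the U7 particle that processes histone messages, and Cpsf2 (51), a cleavage factor, followed by E2f1 (45), Cdk2 (44), Sympk (42) and Cpsf3 (41). It was 36 at Slbp, which binds the stem-loop, 28 at Casp8ap2, 26 at Zfp473 and 20 at Lsm10. Srrt had no peak of either kind at any listed start. Npat, Hinfp, Eri1, Ccne1 and Ccne2 could not be placed. All 13 placed histone chaperone genes of 15 had both, with medians of 37 and 322. Of 9 placed replication-independent histone genes of 11, 8 had both, with medians of 36.5 and 330, and H3f3b had both at another listed start (60 and 351). An H3K27me3 summit was listed at H2afz, the gene of the variant H2A.Z, at 29, and at that other start of H3f3b, at 42.

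As a check of the labelled cell type, H3K27ac peaks were counted at the starts of fixed marker lists. They were at 6 of 8 placed pre-B markers, 2 of 5 T cell, 0 of 5 myeloid, 1 of 5 erythroid and 0 of 2 stromal markers, against 58.0% of all placed genes. The pre-B share is near that background and by itself does not single out the cell type.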

How the data were processed

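Per the submitters' processing notes, Bowtie2, SAMtools and MACS 1.4.0 were used with build mm9; alignment settings are not given in the sources used here. The authors deposited 1 peak list and 1 summit list for each of PHF6 (77749 peaks), H3K27ac (32388) and H3K27me3 (5616), from single reads of 40 nt on fragments of 200 to 400 bp, per the labels' protocols. The names of the deposited lists record a threshold of 1e-6 and, for PHF6 and H3K27ac alone, a run without local background. The deposited score of a peak, 60 or more in every list, is the authors' value. The deposited summit signal is the authors' pileup height, at most 400 in every list. Read totals are not in the lists: the depth is unknown and heights carry no error.

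Starts are the 5′ ends of genes in the RefSeq GRCm38.p6 table and were moved to mm9 by local offsets. Each offset needed at least 5 matches of tall H3K27ac summits within a 1000-bp width and 2 times the second best, with flanks of 1 to 8 Mb, and was refined on the 15 nearest matched genes. Placement was tested on simulated data, where 95.2% of 17492 genes were placed, 97.3% of those within 1 kb. A peak counted when any base lay within 1 kb of the start, and the tallest such summit stood for the gene. No test across samples was possible. Named genes are the tallest and lowest of each family in each list, the testis genes and the processing list; other genes named were chosen after their values were seen. The members and lists were chosen with earlier results of these data known. Python 3.11.15, pandas 2.3.3, numpy 2.4.6 and scipy 1.17.1 were used. Alternatives changed the distance, the threshold, the offset, the cluster joining and the counting unit.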

Additional observations from a re-analysis of the deposited data

How the results depend on the processing

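Of 49 alternative values, 47 kept the reported counts within 1.5 times and the medians within their 95% intervals. Counting each peak once moved the median H3K27ac summit from 295 to 286 over 36 peaks, and the median PHF6 summit to 45. Joining histone genes over gaps of up to 250 kb took in 2 H3K27me3 peaks, where 100 kb took in 0. Requiring the summit within 1 kb left PHF6 at 58 and H3K27ac at 45 of 61 genes. With peaks of a score of at least 100 these were 61 and 60. Offsets from the histone genes themselves, from PHF6 summits or from H3K27ac summits of height 100 or more placed 51, 43 and 62 genes, and each placed gene had PHF6 and H3K27ac and none H3K27me3. Taking any listed start in place of the 5′ end was chosen after seeing the data and changed no count of histone genes, while PHF6 over all placed genes went from 10191 to 10646 and H3K27ac from 9256 to 9687. No paired analysis was possible because there were no replicates to pair. Depth and mappability limit heights at duplicated genes.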
